A study of Mus musculus with 10 samples.

Results

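In regulatory T cells from Tfam knockout mice, 211 genes had lower RNA levels by a rule on values and on names. Names in the chemokine, interleukin, integrin, S100, TNF, matrix metalloprotease, killer receptor, granzyme, MHC and immunoglobulin name families were left out. Cytokines with other names, such as Ifng, were kept. Names of unnamed transcripts, starting with Gm and a number or ending in Rik, were left out too. A gene was a member when its mean control level was at least 1 CPM (the gene's share of the counted reads of a library, scaled to a common total), every KO library lay below every control library, and the KO mean was at most 0.6 of the control mean. Of 22553 genes in the table, 10663 had a mean control level of at least 1 CPM and a name that was kept, and 211 of these (1.98%) met the rule. Before names were considered 253 genes met the value conditions, so 42 were left out by name. The members were chosen by these same KO and control values, so their levels are given as a description and no test of a member is given.

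The RNA came from YFP-positive regulatory T cells (Treg) sorted from 2 lymphoid sources, spleen and lymph node, of C57BL/6 females that were littermates. Each library pooled the cells of 2 to 3 mice, whose age is not stated in the sources used here. All mice were heterozygous for Foxp3 Yfp-Cre, an allele that expresses a YFP-tagged Cre recombinase from the Treg gene Foxp3. Control mice (Ctrl, genotype Tfam fl/+) carried 1 floxed Tfam allele and KO mice (Tfam fl/fl) had both alleles floxed, so the control cells can lose a Tfam copy too. Foxp3 lies on the X chromosome, so heterozygous females also hold Treg without Cre, which the YFP sort leaves out. There were 3 control and 3 KO libraries.

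Treg are CD4 T cells that restrain immune responses and depend on the transcription factor Foxp3. Those that recirculate through lymphoid organs resemble naive T cells, while activated, effector Treg switch on homing receptors, suppressive molecules and transcription factors such as Maf and Prdm1 that also mark Treg of barrier tissues. TFAM packages mitochondrial DNA and is needed for its transcription. The working description of these genes as lying beyond known Treg families held only for the names that the rule left out. Tigit, Icos, Ebi3, Fgl2, Penk, Maf and Prdm1, all known from Treg biology, met the rule, and so did Tfam itself.

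The libraries held between 19087757 and 27490253 counted reads, so that 3 reads equalled between 0.109 and 0.157 CPM. The 6 Treg markers Foxp3, Il2ra, Ctla4, Ikzf2, Cd4 and Cd3e summed to between 2255 and 2529 CPM in control and between 2289 and 2481 CPM in KO. Tfam stood at 25.7, 31.4 and 42.2 CPM in control and 15.5, 14.3 and 16.5 CPM in KO, given here and below for replicates 1, 2 and 3 in that order, so no library went against its label. The count covers the whole gene, so the KO reads need not come from intact mRNA. The 14 markers of macrophages and monocytes summed to 421, 926 and 481 CPM in control and 542, 1275 and 467 CPM in KO, highest in replicate 2 of both groups. The 9 B cell markers summed to between 549.5 and 588 CPM in control and between 398 and 434 CPM in KO, most of it Ighm. In bulk RNA, fewer cells of a type and less RNA per cell cannot be told apart.

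Promoters of some members are shown first, because genes that move together can be read beside the sequence at their start. The RefSeq table (GRCm38.p6) held 208 distinct promoters for 164 of the 211 members, each covering 250 bases before to 50 after a transcription start. Shown are the 250 bases before the start, 5′ to 3′ on the gene's own strand, of members that results below turn on. Tigit and Myo1f are among the 10 members with the largest folds at 5 CPM or more, as are Fgl2 and Gpr15; Anxa2 and Prdm1 are an annexin and a transcription factor with a larger number of reads than most. Rnase4 is shown because it shares this start with a further member, Ang. Capitals mark each match to the AP-1 motif TGANTCA or the RUNX motif TGTGGT on either strand. Each window shown apart from that of Rnase4 holds such a match, which is not typical of the members. Tox2, Tbx21 and Adam8, also among those 10 members, had neither motif in their promoters and are not shown.
Tigit (chr16:43664185-43664434, minus strand): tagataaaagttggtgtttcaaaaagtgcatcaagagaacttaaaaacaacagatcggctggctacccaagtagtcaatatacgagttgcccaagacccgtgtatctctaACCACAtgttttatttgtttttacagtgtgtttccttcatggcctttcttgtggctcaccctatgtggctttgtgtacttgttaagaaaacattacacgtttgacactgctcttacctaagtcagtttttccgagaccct
Fgl2 (chr5:21372423-21372672, plus strand): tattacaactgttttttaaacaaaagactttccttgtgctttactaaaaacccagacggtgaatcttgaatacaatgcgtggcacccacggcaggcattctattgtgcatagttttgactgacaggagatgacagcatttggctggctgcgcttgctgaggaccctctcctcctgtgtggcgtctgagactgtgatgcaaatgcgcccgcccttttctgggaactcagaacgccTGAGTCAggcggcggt
Gpr15 (chr16:58718873-58719122, minus strand): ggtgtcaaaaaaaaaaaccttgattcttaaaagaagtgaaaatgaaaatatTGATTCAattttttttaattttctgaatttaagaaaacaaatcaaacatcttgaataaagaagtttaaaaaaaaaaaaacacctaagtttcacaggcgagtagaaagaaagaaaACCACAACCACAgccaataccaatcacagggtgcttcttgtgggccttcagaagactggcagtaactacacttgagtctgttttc
Myo1f (chr17:33555457-33555706, plus strand): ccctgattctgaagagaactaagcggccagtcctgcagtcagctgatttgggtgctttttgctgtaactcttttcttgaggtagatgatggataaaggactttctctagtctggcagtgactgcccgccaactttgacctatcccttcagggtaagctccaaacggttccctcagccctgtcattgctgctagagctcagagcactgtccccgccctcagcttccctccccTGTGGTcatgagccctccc
Anxa2 (chr9:69453433-69453682, plus strand): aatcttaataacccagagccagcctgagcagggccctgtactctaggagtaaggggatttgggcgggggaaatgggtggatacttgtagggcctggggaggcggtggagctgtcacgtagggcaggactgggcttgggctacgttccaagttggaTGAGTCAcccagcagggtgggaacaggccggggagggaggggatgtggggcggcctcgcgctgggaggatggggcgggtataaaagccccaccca
Prdm1 (chr10:44458749-44458998, minus strand): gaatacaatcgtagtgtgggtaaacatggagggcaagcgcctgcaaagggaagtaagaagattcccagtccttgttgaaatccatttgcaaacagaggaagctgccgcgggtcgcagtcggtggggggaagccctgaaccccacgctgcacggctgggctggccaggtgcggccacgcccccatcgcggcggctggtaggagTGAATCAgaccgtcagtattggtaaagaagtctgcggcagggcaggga
Rnase4 and Ang (chr14:51090827-51091076, plus strand): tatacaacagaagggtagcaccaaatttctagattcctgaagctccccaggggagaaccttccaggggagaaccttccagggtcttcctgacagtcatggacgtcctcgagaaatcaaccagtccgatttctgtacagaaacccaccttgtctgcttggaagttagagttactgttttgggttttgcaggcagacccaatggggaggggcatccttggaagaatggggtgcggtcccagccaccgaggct
In these windows the AP-1 match began 16 bases before the start of Fgl2, 48 before that of Prdm1, 95 before that of Anxa2 and 199 before that of Gpr15. RUNX matches began 19 bases before the start of Myo1f, 140 before that of Tigit, and 85 and 79 before that of Gpr15, side by side. The shared Rnase4 and Ang window held neither.

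Across the 208 member promoters, the AP-1 motif matched in 7.21% and the RUNX motif in 18.75%. Among the 10965 promoters of all genes that could have met the rule, the shares were 4.76% and 12.6%. The E-box CACGTG, read by basic helix-loop-helix factors, went the other way, with 2.88% of member promoters (6 of 208) against 10.1%. The GC box GGGCGG matched in 53.8% against 63.3%, beside a median GC content of 58.7% against 60.7%. Matches to the TATA box TATAAA stood at 11.1% against 6.67%, to the STAT motif TTCNNNGAA at 9.62% against 6.83% and to the GATA motif AGATAA at 8.65% against 6.46%. The IRF motif matched in 3.37% against 3.16%, the ATF/CREB motif TGACGTCA in 1.92% against 3.15% and the NRF1 motif in 0.962% against 2.2%. Both strands were searched, and none of the 10 motif words holds another. Shares are per promoter, and starts of the same gene that lie 1 base apart, as for Glrx, count separately. The AP-1 matches in 15 member promoters came from 14 members, and the RUNX matches in 39 from 36. In the 150 bases before the start alone, the member minus all-promoter difference was smaller for RUNX (3.39 against 6.16 percentage points), STAT (0.93 against 2.78), GATA (0.33 against 2.20) and the E-box (-4.77 against -7.21). Matches in this shorter window were fewer in both sets, which can by itself make such differences smaller. They stood at 9.13% of member against 5.75% of all promoters for RUNX, and at 4.33% against 3.4% for STAT. For GATA they stood at 3.37% against 3.04% and for the E-box at 1.44% against 6.21%. A match is a description of letters in a window and no evidence of binding, and the part of base composition in these shares was not tested.

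**Figure D1:**
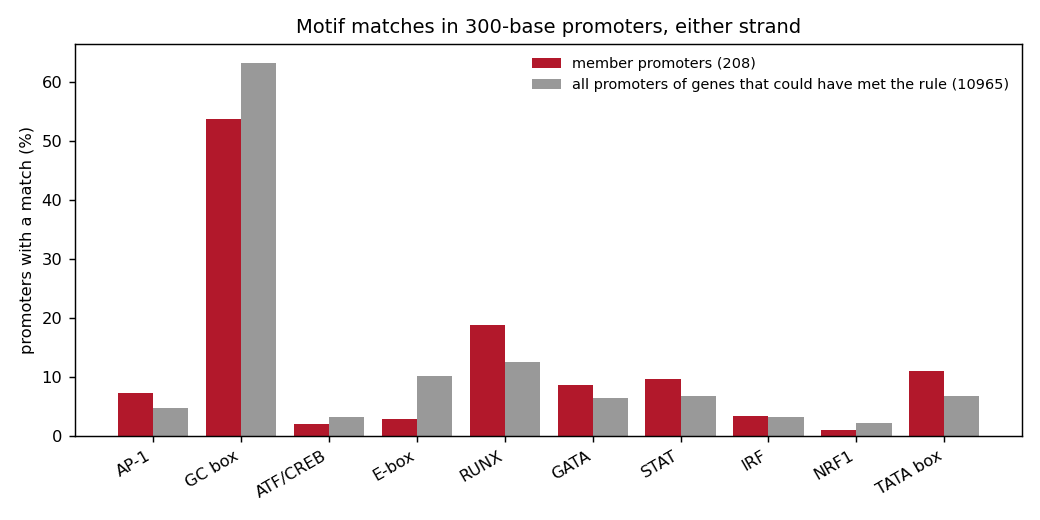
Share of promoters (%, vertical axis) with at least 1 match to each of 10 motifs (horizontal axis), in 208 member promoters (red) and in 10965 promoters of all genes that could have met the rule (grey). AP-1, RUNX, STAT, GATA and TATA box bars are higher for members, and E-box (2.88% against 10.1%) and GC box bars (53.8% against 63.3%) are lower.

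Most members were read at low depth. The median control level of the 211 was 4.22 CPM, against 33.8 CPM over all 10663 genes that could have met the rule, and 54% of members but 15.5% of those genes lay below 5 CPM. The KO level had a median of 44.2% of control over the members, by construction at most 60%, against 98.7% over all those genes. At or below 50% were 134 members and at or below 25% were 22. In 42 members the lowest control library was at least 2 times the highest KO library, while in 8 the gap was less than 1.1-fold. All 211 passed the filter on low counts used for the fit over all genes. The same rule turned around, with KO above control, was met by 24 of 10618 genes (0.226%). These included Marco, a macrophage scavenger receptor, at a mean of 2.64 CPM in control and 5.79 CPM in KO. In the fit over all 11990 tested genes, members included, edgeR called 1.39% lower and 0.1% higher. With the replicate number as a block, edgeR called 4.39% lower and 1.97% higher.

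**Figure D2:**
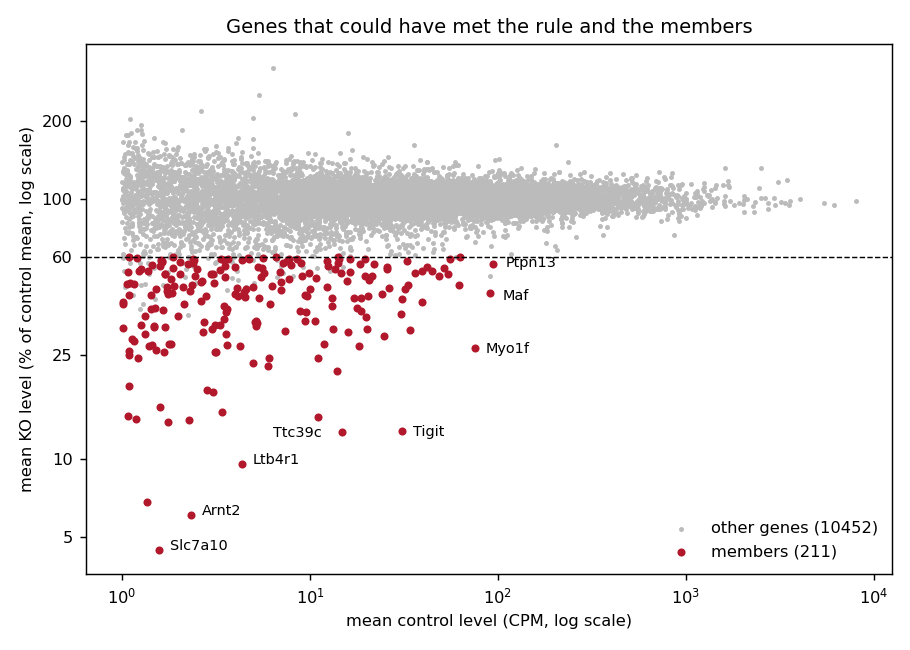
Mean KO level as a percentage of the control mean (vertical axis, log scale) against the mean control level in CPM (horizontal axis, log scale) for 10663 genes with a mean control level of at least 1 CPM and a kept name. The 211 members (red) lie at or below the dashed line at 60% by construction, and most lie at the left, with a median control level of 4.22 CPM.

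Members just inside the limit were Actr3b, Odc1, Myo3b, Ms4a4d and Apobec2, with KO means between 59.7% and 59.9% of control. Just outside it were Coro2b, Tg, C1qtnf6, Ahr and Lyl1, which met every other condition, at 60.01% to 60.97%. Ahr, the aryl hydrocarbon receptor, stood at 14.8, 20.8 and 13.2 CPM in control and 9.12, 8.98 and 11.4 CPM in KO, so its groups did not overlap either. The limit therefore separates genes with nearly equal values.

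The replicates did not carry the members evenly. Control replicate 2 was the highest control library for 157 of the 211 members (74.4%), and control replicate 3 was the lowest for 144 (68.2%). Among the 10452 other genes that could have met the rule, those shares were 38.7% and 37.8%. The median member stood at 94.9%, 119% and 83.6% of its control mean in control replicates 1 to 3, and at 44.5%, 46.3% and 40.2% in KO replicates 1 to 3. Summed over all members, the level was 2178, 2643 and 1868 CPM in control and 1031, 1064 and 928 CPM in KO. Between same-numbered libraries the median KO level was 44.4%, 39.9% and 46.3% of control in pairs 1 to 3, and 135 members were at or below 60% in all 3 pairs. Macrophage markers were also highest in the libraries numbered 2, and their part in these levels was not tested. Without both of those libraries 194 genes met the rule, 166 of them members, and without control replicate 3 alone 325 genes met it, 204 of them members.

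**Figure D3:**
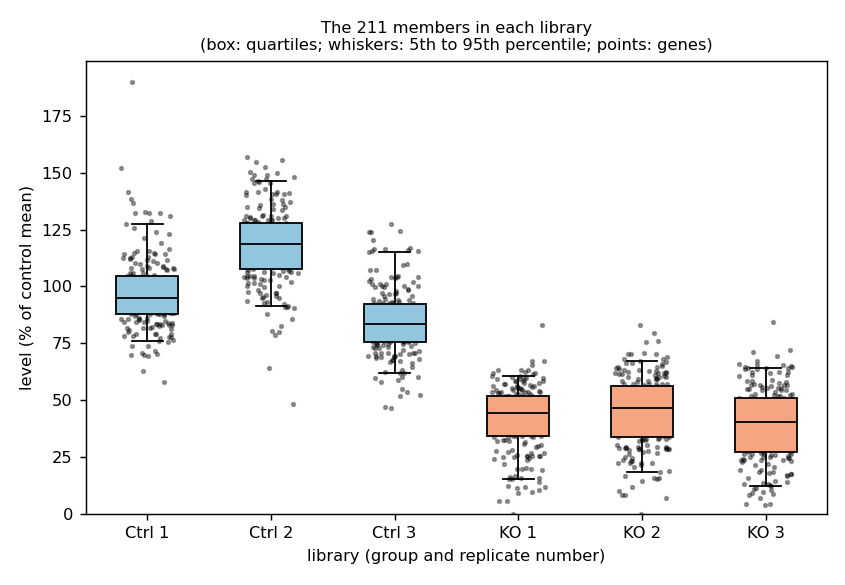
Level of each of the 211 members as a percentage of its own control mean (vertical axis) in each of the 6 libraries (horizontal axis). Boxes show quartiles, whiskers the 5th to 95th percentile and points single genes; the medians are 94.9%, 119% and 83.6% in control replicates 1 to 3 and 44.5%, 46.3% and 40.2% in KO replicates 1 to 3.

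Members were placed by hand into 16 groups by protein class and known role, 18 of them in a group without an assigned role. Most members given with values below a control mean of 5 CPM fall outside the naming rule and were picked after their values were seen. A fold is the mean control CPM divided by the mean KO CPM. For members given by their reads, and for Ltb4r1, the ratio of depth-scaled read sums (control over KO) is given. Its 95% Clopper-Pearson interval measures counting error alone, because reads were summed over the libraries of a group. The spread between pools is left out of it. Members were chosen by these same counts, which favours intervals that exclude equal levels, so no interval is a test of a member. CPM is not scaled to gene length, so levels are compared between libraries and not between genes.

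**Figure D4:**
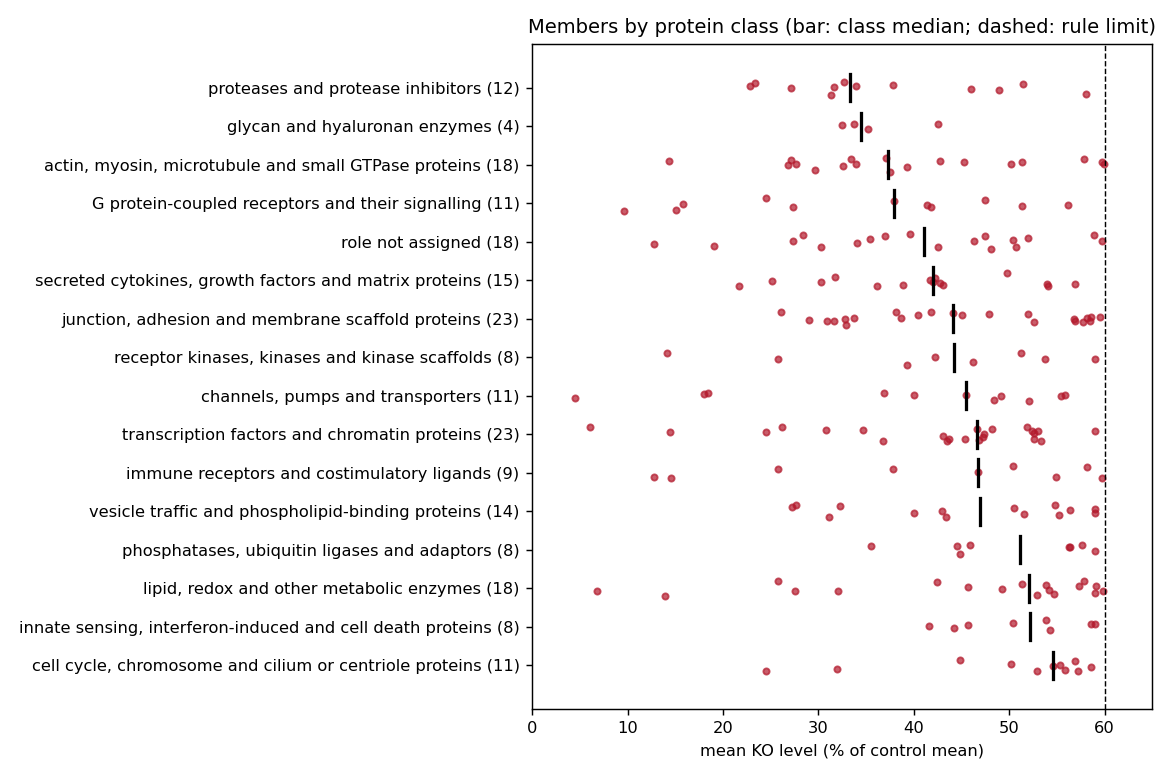
Mean KO level as a percentage of the control mean (horizontal axis) for each member (points), by protein class (vertical axis, number of members in brackets, ordered by median). Black bars are class medians, which run from 33.3% for proteases and their inhibitors to 54.6% for cell cycle and centriole proteins; the dashed line is the limit of the rule at 60%.

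G protein-coupled receptors and signalling proteins grouped with them gave 11 members with a median KO level of 37.9% of control. Such receptors read lipids, peptides and proteases outside the cell and pass the signal to G proteins. Ltb4r1, the high-affinity receptor for leukotriene B4, stood at 4.83, 5.18 and 2.98 CPM in control and 0.252, 0.628 and 0.367 CPM in KO, 10.4-fold lower, with a depth-scaled ratio of 10.4 (6.97 to 16.2). Gpr15, a receptor that guides T cells to the large intestine, stood at 9.81, 13.03 and 10.2 CPM in control and 2.19, 3.04 and 2.88 CPM in KO, 4.08-fold lower. The lowest control library was 4.75 times the highest KO library for Ltb4r1 and 3.22 times for Gpr15. Galr3, a galanin receptor, had 45, 34 and 40 reads in control and 6, 6 and 4 in KO. Its depth-scaled ratio was 6.29 (3.72 to 11.4). The orphan receptor Gpr25 (3.66-fold), the protease-activated receptor F2rl2 (2.11-fold), the leukotriene receptor Cysltr2 (1.95-fold) and the muscarinic receptor Chrm4 (1.78-fold) were lower too.

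Among the signalling members of this class, Gna15 encodes a G protein alpha chain that couples many receptors to phospholipase C. Its level was 17.9, 20.9 and 14.8 CPM in control and 7.52, 7.49 and 5.29 CPM in KO, 2.64-fold lower. Plcb4, a phospholipase C of the beta type, stood at 12.4, 16.99 and 10.004 CPM in control and 5.51, 5.02 and 5.92 CPM in KO. Both genes were highest in control replicate 2 and, among control libraries, lowest in replicate 3. Plcd1, of the delta type, was 6.61-fold lower at a mean of 3.39 CPM in control and 0.513 CPM in KO. In the list of orphan, lipid and nucleotide receptors, 25 tested genes were not members. Of these, 1 fell by edgeR, the protease-activated receptor F2rl1 (log2 fold change -0.47 ± 0.07, adjusted p = 0.0219), and 24 did not pass. With the replicate block (replicate number as a term in the fit), edgeR called 6 of the 25 lower and 2 higher, the latter Gpr83 and Gpr146. Over all 11779 tested non-members, edgeR called 0.628% lower and 0.102% higher, and with the block 2.91% and 2%. Each list count here and below is to be read beside these shares. In the list of RGS proteins and G protein chains, 0 of 22 tested genes other than Gna15 passed with edgeR, 4 lower genes had an unadjusted p under 0.05, and DESeq2 called 0. The block called 4 of them lower, namely Rgs2, Rgs16, Gnaq and Gng2. The 2 with the most reads, Grk2 and Gnai2, had log2 fold change 0.04 ± 0.07, adjusted p = 0.857 and log2 fold change -0.09 ± 0.07, adjusted p = 0.679 in edgeR.

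Immune receptors and costimulatory ligands gave 9 members. Tigit, an inhibitory receptor for the poliovirus receptor Pvr, stood at 26.1, 37.7 and 28.5 CPM in control and 4.75, 3.67 and 3.41 CPM in KO, 7.805-fold lower. Its lowest control library was 5.49 times its highest KO library. Pvrig, which binds a related nectin ligand, had 33, 52 and 36 reads in control and 6, 16 and 5 in KO, a depth-scaled ratio of 3.79 (2.48 to 5.98). Icos, a costimulator of the CD28 family, stood at 42.97, 63.1 and 40.2 CPM in control and 24.8, 25.02 and 23.9 CPM in KO, 1.98-fold lower. The KO libraries of Icos lay close together, and control replicate 2 was the high one. Cd80, a ligand of CD28 and CTLA-4, was 2.14-fold lower. Lilr4b (6.87-fold) and Ly6c2 (2.65-fold) have near-identical copies that can share reads, so their values are uncertain. Ms4a4d and the receptor segment Trav7-3 belong to multigene families with the same limit. Cd22, a receptor best known from B cells, stood at 3.54, 4.58 and 3.89 CPM in control and 2.69, 2.17 and 1.73 CPM in KO. B cell markers as a list were also lower in KO, and their part in the Cd22 value was not tested. The list of tetraspanins and other surface proteins held 46 tested non-members, and 1 of them fell, the inhibitory receptor Pdcd1 (log2 fold change -0.70 ± 0.09, adjusted p = 0.0105), while 45 did not pass. With the replicate block, edgeR called 11 of the 46 lower, among them Lag3, Cd44 and Cd83, and 1 higher, L1cam.

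Secreted cytokines, growth factors and matrix proteins gave 15 members. Fgl2, a secreted protein with suppressive activity in Treg, stood at 14.4, 16.4 and 11.02 CPM in control and 3.45, 3.28 and 2.36 CPM in KO, 4.61-fold lower. Penk, the precursor of enkephalin peptides, stood at 27.1, 34.1 and 30.6 CPM in control and 10.4, 11.7 and 11.1 CPM in KO, 2.76-fold lower. The KO libraries of Penk lay close together. Csf1, the growth factor of macrophages, stood at 19.7, 16.7 and 14.8 CPM in control and 6.93, 8.98 and 5.396 CPM in KO, 2.401-fold lower, and control replicate 1 was highest. Ifng, the cytokine of type 1 helper cells, had 94, 104 and 62 reads in control and 27, 24 and 18 in KO, a depth-scaled ratio of 3.19 (2.43 to 4.22). Ebi3, a subunit shared by IL-27 and IL-35, stood at 9.96, 12.6 and 9.79 CPM in control and 5.59, 6.62 and 3.88 CPM in KO. Bmp7, a ligand of the TGF-beta superfamily, stood at 22.8, 28.4 and 26.3 CPM in control and 13.9, 14.97 and 12.99 CPM in KO, 1.85-fold lower, and its receptor chain Bmpr1a was 2.16-fold lower at a control mean of 1.89 CPM. Jag1, a Notch ligand, had 32, 31 and 16 reads in control and 3, 11 and 3 in KO, a depth-scaled ratio of 3.93 (2.31 to 7.08).

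Among these members, Lamc1, Spock2 and Podnl1 encode proteins of the extracellular matrix. Lamc1, the laminin gamma-1 chain, stood at 55.97, 55.98 and 42.2 CPM in control and 31.2, 26.9 and 25.2 CPM in KO, 1.85-fold lower. Spock2, a proteoglycan of the testican family, stood at 13.95, 15.3 and 10.7 CPM in control and 4.71, 4.83 and 3.14 CPM in KO, 3.15-fold lower. Angptl2, an angiopoietin-like protein, was 2.57-fold lower and Podnl1, a leucine-rich repeat proteoglycan, 2.32-fold. None of these overlapped between groups, which the rule required. Rnase4 and Ang, secreted ribonucleases whose shared promoter is printed above, were 2.38-fold and 2.34-fold lower. Their gene spans overlap, so reads could be shared between them.

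Proteases and protease inhibitors gave 12 members and the lowest median of the groups, at 33.3% of control. Serpina3g, an inhibitor of cathepsins, stood at 46.6, 27.3 and 28.4 CPM in control and 10.4, 12.4 and 9.22 CPM in KO, 3.19-fold lower. Serpina3f, its neighbour on the chromosome, stood at 11.4, 2.89 and 3.71 CPM in control and 1.56, 1.497 and 1.05 CPM in KO, 4.38-fold lower. Control replicate 1 was far above the others for Serpina3f, and without it the KO mean was 0.414 of control in place of 0.228. The Serpina3 genes form a multigene family, so reads could be split between copies. Adam8, a surface metalloprotease, stood at 18.8, 22.6 and 13.5 CPM in control and 4.96, 5.51 and 4.45 CPM in KO, 3.68-fold lower. The serine proteases St14, known as matriptase, and Tmprss13 sit in the membrane. St14 stood at 9.58, 11.5 and 6.95 CPM in control and 3.45, 3.57 and 2.51 CPM in KO, and Tmprss13 was 4.27-fold lower at a control mean of 4.99 CPM. Cpd, a carboxypeptidase of the secretory pathway, was 2.04-fold lower, its relative Cpe 1.72-fold, and Serpinb1a, an inhibitor of neutrophil proteases, 3.06-fold. In the list of inhibitors, cathepsins and caspases, 1 of 33 tested non-members fell, the cystatin Cst7 (log2 fold change -0.68 ± 0.12, adjusted p = 0.0356), and 32 did not pass. The block called 3 of the 33 lower, Cst7 and Timp2 among them.

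**Figure D5:**
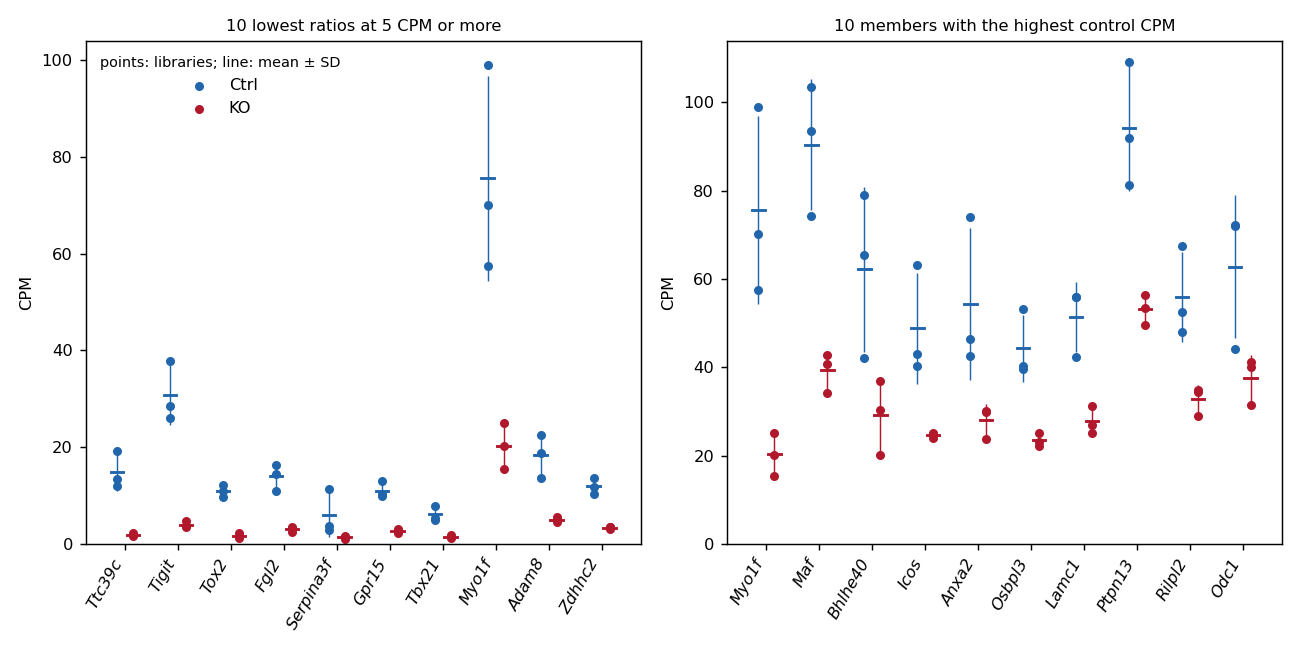
Levels in CPM (vertical axes, from 0) of the 10 members with the lowest KO to control ratio at a control mean of at least 5 CPM (left) and of the 10 members with the highest control CPM (right), in control (blue) and KO (red) libraries. Points are libraries and lines the mean ± SD (n = 3 each); no member overlaps between groups, as the rule requires, and control replicate 2 is often the top point, as for Tigit at 37.7 CPM and Myo1f at 99.02 CPM.

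Transcription factors and chromatin proteins gave 23 members, including Tfam. Maf, a basic leucine zipper factor that supports IL-10 expression in T cells, stood at 93.5, 103 and 74.2 CPM in control and 40.7, 42.8 and 34.3 CPM in KO, 2.301-fold lower. Bhlhe40, a basic helix-loop-helix repressor of activated T cells, stood at 65.4, 79.1 and 41.98 CPM in control and 30.3, 36.8 and 20.1 CPM in KO, 2.14-fold lower. Replicate 3 was the lowest library of its group for both genes. Tbx21, which encodes the type 1 factor T-bet, stood at 5.399, 7.84 and 4.95 CPM in control and 1.85, 1.304 and 1.31 CPM in KO, 4.08-fold lower. Tox2, an HMG-box factor, stood at 11.03, 12.2 and 9.79 CPM in control and 2.14, 1.11 and 1.52 CPM in KO, 6.91-fold lower. Arnt2, a partner of PAS-domain factors, had 64, 53 and 56 reads in control and 3, 4 and 2 in KO. Its depth-scaled ratio was 16.3 (8.37 to 36.1). Zbtb32, a zinc finger repressor, was 2.72-fold lower, the basic leucine zipper repressor Nfil3 2.204-fold, the retinoid-related receptor Rora 1.91-fold and the effector factor Prdm1 1.93-fold. H1f0, a linker histone linked to cell cycle exit, stood at 33.9, 51.1 and 33.5 CPM in control and 20.01, 23.9 and 18.97 CPM in KO.

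The list of transcription factors around these members had 45 tested genes that were not members. Of these, 1 fell, the AP-1 family factor Batf (log2 fold change -0.62 ± 0.09, adjusted p = 0.0152) and 44 did not pass. With the replicate block, edgeR called 9 of the 45 lower, including Ahr, Id2, Irf4 and Runx3. Batf stood at 37.1, 44.7 and 37.4 CPM in control and 24.4, 27.4 and 25.2 CPM in KO. The call on Batf was lost without control replicate 2, or without any 1 of the KO replicates.

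Actin, myosin, microtubule and small GTPase proteins gave 18 members with a median of 37.3% of control. Myo1f, an unconventional myosin of white blood cells, stood at 70.2, 99.02 and 57.5 CPM in control and 20.2, 25.02 and 15.5 CPM in KO, 3.74-fold lower. Nav2, a protein that steers microtubules and neurite growth, stood at 24.6, 34.7 and 14.8 CPM in control and 8.45, 6.47 and 7.07 CPM in KO, 3.37-fold lower. Crmp1, a collapsin response mediator best known from neurons, stood at 30.5, 39.7 and 26.4 CPM in control and 14.6, 15.6 and 13.5 CPM in KO, 2.21-fold lower. Myo1f was spread more widely in control than in KO, with control replicate 2 on top. Ttn, the sarcomere protein titin, stood at 20.5, 26.6 and 8.73 CPM in control and 6.98, 6.13 and 7.596 CPM in KO, so that control replicate 3 lay only just above KO replicate 3. The smooth muscle actin Actg2 was 2.95-fold lower and the nebulin relative Nebl 3.07-fold. The actin genes are near copies of each other, so the Actg2 value is uncertain. Cass4, a focal adhesion scaffold, was 2.99-fold lower and the exchange factor Plekhg3 3.69-fold. Myo3b, a myosin with a kinase domain, stood at 13.7, 16.01 and 12.8 CPM in control and 7.99, 9.37 and 8.07 CPM in KO, near the limit of the rule. Actr3b, a copy of the Arp3 subunit that seeds actin branches, had 49, 37 and 55 reads in control and 17, 22 and 30 in KO, a depth-scaled ratio of 1.73 (1.29 to 2.34).

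Of the tested non-members in the wider cytoskeleton list, edgeR called 2.22% lower, and 11.1% with the block. Over all tested non-members those shares were 0.628% and 2.91%. In the list of actin, myosin and sarcomere-type genes, 1 of 45 tested non-members fell, Myo1e (log2 fold change -0.35 ± 0.07, adjusted p = 0.0461) and 44 did not pass. The block called 5 of the 45 lower, Myo1e, Capg, Lmna, Vim and Ahnak. Among semaphorins, plexins and neuropilins, a list without members, 2 of 13 tested genes fell, Nrp1 (log2 fold change -0.59 ± 0.09, adjusted p = 0.0208) and Plxnc1 (log2 fold change -0.40 ± 0.08, adjusted p = 0.0451), and 11 did not pass. The block called 4 of the 13 lower, adding Sema4f and Plxnd1, and 1 higher, Sema4a. The calls on Myo1e and Plxnc1 were lost with DESeq2 size factors in the edgeR fit (adjusted p = 0.0577 and 0.0516).

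Junction, adhesion and membrane scaffold proteins gave 23 members with a median of 44.1% of control. Most are better known from epithelia and neurons than from T cells. Dsp, desmoplakin of the desmosome, stood at 8.67, 7.24 and 5.09 CPM in control and 3.404, 3.82 and 2.83 CPM in KO, 2.09-fold lower. Marveld2 and Lsr, which mark the corners where 3 epithelial cells meet, were 1.68-fold and 2.22-fold lower. Control replicate 2 was the highest library for Lsr and Marveld2, while control replicate 1 was the highest for Dsp. Magi1, a scaffold with PDZ domains, was 2.96-fold lower and the adhesion protein Nectin1 3.45-fold. Myadm, a myeloid-associated membrane protein, stood at 4.905, 7.38 and 3.75 CPM in control and 2.02, 2.95 and 1.73 CPM in KO. Aplp1, a relative of the amyloid precursor, stood at 12.4, 15.9 and 14.2 CPM in control and 8.95, 8.64 and 6.55 CPM in KO, 1.76-fold lower. Susd2, a surface protein with a sushi domain, was 1.93-fold lower. Gpnmb, a glycoprotein abundant in macrophages, was 1.72-fold lower. The summed macrophage markers lay between 421 and 926 CPM in control and between 467 and 1275 CPM in KO. Their part in the Gpnmb value was not tested. The protocadherin Pcdhgc3 shares its last exons with the other genes of its cluster, so its value is uncertain.

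Vesicle traffic and phospholipid-binding proteins gave 14 members. Anxa2, an annexin that binds membranes with calcium, stood at 46.3, 73.997 and 42.5 CPM in control and 29.9, 30.1 and 23.8 CPM in KO, 1.94-fold lower. Eea1, a tether of early endosomes, stood at 38.5, 50.1 and 36.5 CPM in control and 24.1, 20.9 and 23.5 CPM in KO, 1.83-fold lower. Stx11, a syntaxin needed for the release of cytotoxic granules, stood at 20.1, 26.2 and 18.04 CPM in control and 10.97, 11.4 and 10.1 CPM in KO, 1.98-fold lower. For all 3 genes control replicate 2 was the highest library. Zdhhc2, an enzyme that adds palmitate to proteins, stood at 10.2, 13.7 and 11.8 CPM in control and 3.03, 3.38 and 3.46 CPM in KO, 3.62-fold lower. Baiap3, a relative of the Munc13 priming factors, was 3.22-fold lower and the annexin Anxa1 3.097-fold. Among exocytosis genes, 1 of 19 tested non-members fell, the synaptotagmin Syt11 (log2 fold change -0.55 ± 0.09, adjusted p = 0.0223), and 18 did not pass. The block called 2 of the 19 lower, Syt11 and Rab11fip4.

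Channels, pumps and transporters gave 11 members. Atp2b4, a plasma membrane pump that exports calcium, stood at 39.1, 48.7 and 30.99 CPM in control and 16.5, 14.5 and 16.5 CPM in KO, 2.501-fold lower. The calcium channel chains Cacna1i and Cacna1d, known from excitable cells, were 5.55-fold and 2.71-fold lower at control means of 3.04 and 3.56 CPM. Trpm6, a magnesium channel with a kinase domain, had 77, 76 and 55 reads in control and 11, 13 and 9 in KO, a depth-scaled ratio of 5.33 (3.68 to 7.95). The pump and the 3 channels all move divalent cations. Slc39a4, an importer of zinc, stood at 14.6, 19.6 and 13.1 CPM in control and 7.82, 8.02 and 7.07 CPM in KO, 2.07-fold lower. Abcb1a, the drug efflux pump P-glycoprotein, stood at 38.9, 34.4 and 34.96 CPM in control and 17.6, 16.3 and 22.5 CPM in KO, 1.92-fold lower, with KO replicate 3 the highest of its group. Slc22a15, an organic cation transporter, was 2.04-fold lower. Slc7a10, a carrier of small neutral amino acids, had 38, 44 and 33 reads in control and 0, 0 and 4 in KO, the lowest ratio among the members. Its depth-scaled ratio was 24.3 (9.24 to 90.7), and KO replicates 1 and 2 held no read of it. In the lists of ion transport and of plasma membrane carriers, 0 of 28 and 0 of 31 tested non-members passed with edgeR. At an unadjusted p under 0.05 the ion transport list held 5 lower and 1 higher and the carrier list 2 lower and 1 higher, and DESeq2 called 1 gene in all, a carrier, higher. The block called 2 of the 28 ion transport genes lower and 1 higher. It called 1 of the 31 carriers lower, Slc4a8, and 2 higher, Slc12a7 and Slc40a1. The calcium pump Atp2a3 of the ion transport list had log2 fold change -0.04 ± 0.07, adjusted p = 0.856 in edgeR. The 2 carriers with the most reads, Slc1a5 and Slc12a7, had log2 fold change 0.11 ± 0.08, adjusted p = 0.583 and log2 fold change 0.23 ± 0.06, adjusted p = 0.138 in edgeR. For Slc12a7 the adjusted p was 0.0351 with the replicate block, which changed the call.

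Lipid, redox and other metabolic enzymes gave 18 members with a median of 52.1% of control. Odc1, the first enzyme of polyamine synthesis, stood at 71.98, 72.2 and 44.02 CPM in control and 41.1, 39.99 and 31.4 CPM in KO, 1.67-fold lower. Control replicate 3 lay only just above KO replicate 1 for Odc1. Osbpl3, a lipid transfer protein of membrane contact sites, stood at 39.5, 53.1 and 40.4 CPM in control and 22.9, 22.2 and 25.2 CPM in KO, 1.89-fold lower. Glrx, a glutaredoxin that removes glutathione from proteins, stood at 19.2, 24.4 and 17.7 CPM in control and 8.11, 9.47 and 8.43 CPM in KO, 2.36-fold lower. The cytochrome P450 Cyp2s1 was 1.83-fold lower and the aldo-keto reductase Akr1e1 1.697-fold. Among members with few reads, the carboxylesterase Ces2c had 33, 38 and 28 reads in control and 3, 2 and 1 in KO. Its depth-scaled ratio was 13.95 (6.19 to 38.9). The lipoxygenase Alox8 had 43, 48 and 38 reads in control and 4, 3 and 8 in KO, a depth-scaled ratio of 7.27 (4.25 to 13.4). Noxa1, an activator of NADPH oxidases, was 3.88-fold lower and Soat2, which esterifies cholesterol, 3.12-fold. Car5b, a mitochondrial carbonic anhydrase, was 3.63-fold lower. Among lipid mediator and phosphoinositide enzymes, 1 of 38 tested non-members fell, the acyl-CoA synthetase Acsbg1 (log2 fold change -0.45 ± 0.08, adjusted p = 0.0363), and 37 did not pass. At an unadjusted p under 0.05, 4 of the 38 were lower and 5 higher, and DESeq2 called 1 lower and 1 higher. The block called 2 of them lower, Acsbg1 and Plcl1, and 3 higher, Hpgds, Pik3ip1 and Abca1. The median log2 fold change of the 38 was 0.07.

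Glycan enzymes formed a small group of 4. Fut7 and Gcnt1, which build the sialyl Lewis x glycans that selectins bind, stood at 4.49, 7.56 and 3.46 CPM in control and 1.93, 1.69 and 1.41 CPM in KO for Fut7 and at 3.57, 7.56 and 4.18 CPM in control and 1.303, 2.56 and 1.31 CPM in KO for Gcnt1. Chst2, a sulfotransferase of the same glycans, stood at 18.6, 23.6 and 17.5 CPM in control and 7.06, 6.95 and 6.97 CPM in KO, 2.85-fold lower. The KO libraries of Chst2 were nearly equal, while the control libraries were spread more widely. Cemip2, a surface protein linked to hyaluronan breakdown, was 2.35-fold lower. In the list of glycosyl- and sulfotransferases, 0 of the 25 other tested genes passed with edgeR, 1 lower and 3 higher genes had an unadjusted p under 0.05, and DESeq2 called 0. The block called 1 higher, St8sia1. The 2 with the most reads, Galnt10 and B3gnt2, had log2 fold change 0.14 ± 0.08, adjusted p = 0.532 and log2 fold change -0.19 ± 0.08, adjusted p = 0.408 in edgeR.

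Phosphatases, ubiquitin ligases and adaptors gave 8 members. Ptpn13, a large tyrosine phosphatase, stood at 91.9, 109 and 81.2 CPM in control and 56.3, 49.5 and 53.4 CPM in KO, 1.77-fold lower. Rnf43, a ubiquitin ligase that removes Wnt receptors from the surface, stood at 31.1, 42.5 and 25.03 CPM in control and 20.5, 20.8 and 15.6 CPM in KO, 1.73-fold lower. Ryk, a Wnt co-receptor placed with the kinases, stood at 2.47, 3.83 and 3.201 CPM in control and 0.799, 0.918 and 0.733 CPM in KO, 3.88-fold lower. Kctd17, an adaptor of cullin ligases, stood at 17.6, 20.8 and 16.7 CPM in control and 10.3, 10.5 and 10.2 CPM in KO, 1.78-fold lower. March3, a membrane ubiquitin ligase, was 2.25-fold lower, the arrestin-like Arrdc4 2.23-fold and the phosphatases Ptpn5 and Dusp14 2.18-fold and 2.81-fold. Among 25 tested phosphatases that were not members, 0 passed with edgeR, 2 lower and 1 higher had an unadjusted p under 0.05, and DESeq2 called 0. With the replicate block edgeR called 4 of them lower, Dusp4, Dusp6, Ptpn7 and Ptprj. The 2 with the most reads, Ptprc and Dusp1, had log2 fold change 0.02 ± 0.07, adjusted p = 0.943 and log2 fold change -0.25 ± 0.25, adjusted p = 0.725 in edgeR. The 8 kinases and scaffolds were all read below 5 CPM, and Ttbk1, a tubulin kinase, had 57, 59 and 53 reads in control and 9, 9 and 3 in KO, a depth-scaled ratio of 6.804 (4.31 to 11.3). Lmtk3 was 1.696-fold lower.

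Innate sensing, interferon-induced and cell death proteins gave 8 members. Naip2, Naip5 and Naip6, sensors of bacterial flagellin and secretion systems, stand side by side on the chromosome. Naip2 stood at 16.05, 22.9 and 20.2 CPM in control and 9.33, 10.6 and 9.902 CPM in KO and Naip5 at 12.8, 15.3 and 8.69 CPM in control and 5.34, 6.81 and 4.66 CPM in KO, and Naip6 was 1.697-fold lower. These copies are similar in sequence, so reads may be split between them. The interferon-induced Gbp2b stood at 23.99, 16.9 and 14.9 CPM in control and 7.86, 7.05 and 8.28 CPM in KO, Mx1 at 17.8, 13.5 and 9.46 CPM in control and 7.19, 9.37 and 5.396 CPM in KO and Ifit3b at 8.48, 4.48 and 3.75 CPM in control and 2.8999, 3.33 and 2.83 CPM in KO. For these 3 genes control replicate 1 was the highest library, unlike for most members, and Gbp2b and Ifit3b also have close copies. Mlkl, the executor of necroptosis, was 2.26-fold lower and Nkg7, a cytotoxic granule protein, 1.71-fold. The 7 markers of CD8 T and NK cells summed to between 27.1 and 30.2 CPM in control and between 30.3 and 33.1 CPM in KO. Their part in the Nkg7 value was not tested.

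Cell cycle, chromosome and centriole proteins gave 11 members and the highest median, 54.6% of control. Racgap1, needed for the last step of cell division, stood at 23.99, 32.2 and 21.3 CPM in control and 15.3, 14.2 and 12.8 CPM in KO, 1.83-fold lower. Ncaph, a condensin subunit, was 1.76-fold lower and Cdkn2c, an inhibitor of cyclin-dependent kinases, 1.99-fold. Rilpl2, a protein of cilia and centrosomes, stood at 52.4, 67.5 and 47.9 CPM in control and 34.4, 34.7 and 29.02 CPM in KO, 1.71-fold lower, and the centriole protein Cntln was 1.79-fold lower. Among 26 tested cell cycle genes that were not members, 0 passed with edgeR, 2 lower and 0 higher had an unadjusted p under 0.05, and DESeq2 called 0. With the replicate block edgeR called 5 of them lower, including the proliferation genes Mki67 and Top2a. The 2 with the most reads, Btg1 and Ccnd2, had log2 fold change 0.02 ± 0.09, adjusted p = 0.952 and log2 fold change 0.04 ± 0.11, adjusted p = 0.916 in edgeR.

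In the group without an assigned role, Ttc39c, a protein with tetratricopeptide repeats, stood at 13.3, 19.1 and 11.97 CPM in control and 1.56, 2.27 and 1.83 CPM in KO, 7.86-fold lower. It had the largest fold among members with a control mean of at least 5 CPM. Cobll1 was 2.71-fold lower, Crybg3 2.53-fold, Fam129b 2.93-fold, Zcchc18 2.35-fold and Apobec2 1.68-fold.

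Members also met each other along the chromosomes. Of 209 members matched to a protein-coding gene in the RefSeq table, 9 pairs were direct neighbours. No such count for other genes that could have met the rule is given, so no clustering can be read from this number. Beside the Naip and Serpina3 copies and the Ang and Rnase4 pair, these included Cebpa with Slc7a10, Kndc1 with Utf1, Ttbk1 with Dnph1 and Slc25a53 with Zcchc18. The spans of Slc25a53 and Zcchc18 overlap, and these genes were 1.805-fold and 2.35-fold lower. Cebpa, a myeloid transcription factor, had 77, 63 and 114 reads in control and 29, 55 and 28 in KO, a depth-scaled ratio of 1.92 (1.53 to 2.42), and its neighbour Slc7a10 is described above. Whether the counting used strand is not given in the sources used here, so shared reads cannot be told apart in overlapping pairs.

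The gene lists were chosen with earlier results of these data known, so their shares are a description and no independent support. Over the 15 lists together, 457 tested genes were not members, which means that they had failed the rule. By edgeR 9 of these (1.97%) fell and 0 rose, against 0.628% lower and 0.102% higher over all 11779 tested non-members. At an unadjusted p under 0.05, 71 were lower and 23 higher, and DESeq2 called 25 lower and 6 higher. With the replicate block 60 of the 457 were called lower (13.1%) and 11 higher, against 2.91% and 2% over all non-members. The median log2 fold change was -0.04 over the 457 and -0.001 over all tested non-members. The count depended on which libraries were in the fit, with 5, 2 and 9 list genes called lower without control replicate 1, 2 or 3. Of the 9, 4 were called without control replicate 1, 2 without control replicate 2, 7 without control replicate 3 and 0 without KO replicate 1, 2 or 3. Pdcd1 had adjusted p-values of 0.0694, 0.0664 and 0.0517 in edgeR without KO replicates 1, 2 and 3.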

How the data were processed

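Poly(A) RNA of sorted Treg was sequenced in 3 control and 3 KO libraries. The series also has 2 libraries of chromatin accessibility for each genotype, not used here. The values are whole-number read counts per Ensembl gene, which the authors deposited as 1 table and which the labels describe as HTSeq counts. For the whole series, the submitters' processing notes list the builds mm9 and mm10 and, with no role, Bowtie2, bedtools, Cufflinks, HISAT2, SAMtools and DESeq2. No version, annotation or strand setting is given in the sources used here. Of 22553 genes, 22522 matched a symbol.

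CPM was the count divided by the column total. Over all genes, counts were fitted with edgeR 4.0.16 in R 4.3.3 (filterByExpr with minimum count 10 and total 15, 11990 genes, TMM factors, quasi-likelihood F test, Benjamini-Hochberg adjustment, called at an adjusted p under 0.05). SE was derived from the F statistic. This called 167 genes lower (1.39%) and 12 higher (0.1%). Tested on simulated counts of 11990 genes, it called 93.0% of 4-fold falls, 77.6% of 2-fold falls and 57.1% of 1.5-fold rises in the right direction. Of its calls there, 9.34% were unchanged genes, more than the adjusted threshold aims at. Simulated libraries were drawn without a shared deviation by replicate number, unlike the deposited ones described below. DESeq2 1.42.0, other scalings, no filter, a replicate block and leaving out each library were alternatives. Same-numbered control and KO libraries deviated together from their group means (correlations 0.30, 0.58 and 0.54 over genes), so the numbers were taken to pair libraries. The main fit leaves this pairing out. Its values are the ones quoted wherever no other fit is named, so a gene it did not call can be called with the block. With the block, edgeR called 526 lower and 236 higher.

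Members, gene lists and protein classes were chosen with earlier results of these data known. In each class all members were named where there were 5 or fewer, otherwise the 5 lowest ratios at 5 CPM or more and the 2 highest control levels; in each list the called non-members or, with none, the 2 with the most reads. Other members named were chosen after their values were seen, as were list genes named for a call with the block. Nothing says that pools came from separate litters or days, so p-values measure the spread between pools, which may be technical. No library was a repeat of another, since chi-square over degrees of freedom was at least 8.75 between replicates. Promoters came from RefSeq by symbol; protein sequences were not used here. Some genes that the naming rule covers, and 1 gene list, are not reported here.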

Additional observations from a re-analysis of the deposited data

How the results depend on the processing

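Of the 211 members, 205 met the rule with TMM-scaled sizes (206 genes in all) and all 203 genes that met it with DESeq2 size factors were members. The number was 134 at a limit of 0.5, 97 at a minimum of 5 CPM and 420 with no minimum. With 1 library left out it lay between 170 (without control replicate 2) and 325 (without control replicate 3). Genes called lower numbered 263 in DESeq2 and 526 with the replicate block, against 167, and between 26 and 166 with 1 library left out, fewest without KO replicate 1. Genes called higher numbered 72 in DESeq2 and 236 with the block, against 12, and between 0 and 10 with 1 library left out. List genes called lower numbered 25 in DESeq2 and 60 with the block, against 9, and between 0 and 9 with 1 library left out. Among list genes the block also called 11 higher, against 0. The block included all 167, 12 and 9 of the calls made without it. In the 150 bases before the start alone, the member minus all-promoter difference was -5.76 percentage points for the GC box, against -9.48 in the whole window, and -0.57 for IRF, against 0.20. The difference also shrank for RUNX, STAT, GATA, E-box, TATA box and NRF1 (-0.47 against -1.24 for NRF1). It grew for AP-1 and ATF/CREB. Matches in the shorter window were fewer in both sets, which can by itself make such differences smaller. The ratios of 79 named members moved by less than their replicate spread under each scaling and left-out library tried, and that of Serpina3f moved without control replicate 1. Members below 5 CPM rest on few reads, which limits the precision of their ratios.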
